A study of Mus musculus with 6 samples.

Results

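Transcripts of the oxytocin and vasopressin receptor system were examined in ribosome-bound RNA of medial amygdala (MeA) *Kiss1* cells from female mice. The system was taken as 5 genes chosen by symbol, namely *Oxtr*, *Avpr1a*, *Avpr1b*, *Cd38* and *Lnpep*, and 4 of the 5 were among the 13886 protein-coding genes of the expression table. *Avpr1b* was not listed, so its level in these cells is not known from these data. All females were of the genotype Kiss1Cre+/Rpl22HA+/+ (KissRibo mice, KissCre+/Rpl22HA+/+ in the genotype label), in which Cre driven from the *Kiss1* locus switches on a hemagglutinin (HA) tag on the ribosomal protein Rpl22, so that HA-tagged ribosomes and the RNA on them can be immunoprecipitated (IP) from tissue punches. All had their ovaries removed (OVX) when 8 weeks old, were given estradiol (E2) by implant for 4 days and left without it for 7 days, after which 1 group received E2 again for 5 days (E2 group) and the other did not (OVX group). Each group had 3 IP libraries, and each library was 1 pool of MeA punches from 4 mice, so no value belongs to a single animal. The paper sequenced only the IP RNA of KissRibo mice, and enrichment in *Kiss1* cells over the surrounding tissue was therefore not measured here. By RT-PCR the paper detected *Kiss1* and *Cck* in IP RNA of KissRibo mice and not in that of Cre-negative mice. It found *Avp* in RNA of whole punches but in no IP sample.

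Oxytocin and vasopressin are closely related peptides that act on a small family of G protein-coupled receptors. The oxytocin receptor and the V1a and V1b vasopressin receptors couple mainly to Gq, phospholipase C and the release of calcium from internal stores. In the amygdala the oxytocin receptor is known for its part in social recognition and in the processing of social odors, and it has long been studied as an estrogen-responsive gene in uterus and brain. Cd38 makes cyclic ADP-ribose from NAD and is needed for the release of oxytocin from hypothalamic neurons, and Lnpep, also known as oxytocinase, is a membrane aminopeptidase that cleaves oxytocin and vasopressin.

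The values were log2 CPM, read counts relative to library size that the authors had scaled between libraries, and the scaled library sizes lay between 28.1M and 34.2M. *Kiss1*, listed under 2 identifiers, had a log2 CPM of 1.13 to 2.29 in OVX and of 3.45 to 3.80 in E2 libraries under ENSMUSG00000115958, and of -5.82 to 0.10 and 2.65 to 3.18 under ENSMUSG00000116158. The marker lists of neurons (5 of 5 genes listed), astrocytes (8 of 8), oligodendrocytes (6 of 6), microglia (6 of 6) and endothelial and mural cells (6 of 6) were all present, and the astrocyte list summed to 1660 to 2090 CPM in OVX and 1820 to 2190 CPM in E2 libraries. The IP libraries thus held transcripts that mark cells other than neurons, whose part in the values below was not tested. The list that separated the groups was the one named for forebrain excitatory neurons outside the MeA (7 of 7 genes listed, 0 of 7 higher with E2, 0 called), which summed to 901 to 1170 CPM in OVX and to 683 to 891 CPM in E2 libraries. Where the transcripts of this list came from was not measured. It includes *Slc17a7*, which the paper reports, as *Vglut1*, among the transcripts of MeA *Kiss1* cells. Of the hypothalamic peptide list, *Pomc* was listed and *Oxt*, *Avp*, *Agrp*, *Hcrt* and *Pmch* were not.

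*Oxtr* transcripts rose with E2, while no change was detected in *Avpr1a*, *Cd38* or *Lnpep*. The difference in *Oxtr* was a 1.86-fold increase (95% interval 1.62 to 2.13) in CPM, and 1 of the 4 listed members passed the test, as against 0.288% of all genes in either direction and 0.23% for genes higher with E2. The paper had already reported *Oxtr* as raised by E2 in these libraries, and members were chosen with earlier results known. The count of members called is therefore not a test of the system. *Oxtr* and *Lnpep* were expressed at moderate levels for this table, and *Avpr1a* and *Cd38* were near its lower limit.

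**Figure D1:**
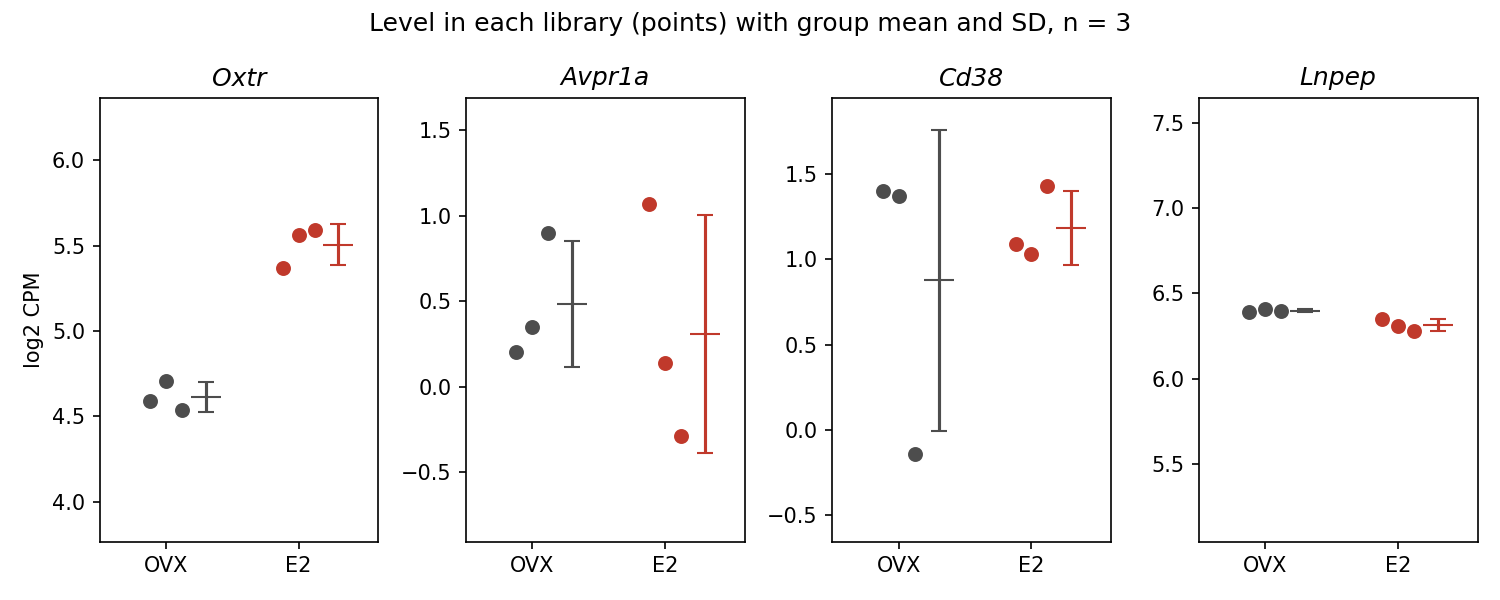
Log2 CPM (y axis, every panel spanning the same number of log2 units but at its own level) of *Oxtr*, *Avpr1a*, *Cd38* and *Lnpep* in each OVX and E2 library (points), with the group mean and SD (bars, n = 3). The 3 E2 libraries of *Oxtr* sit at 5.37 to 5.59, above the OVX libraries at 4.54 to 4.71, whereas the groups overlap for *Avpr1a* and *Cd38* and lie close together for *Lnpep*.

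*Oxtr* (ENSMUSG00000049112) encodes the oxytocin receptor and lies on the minus strand of chromosome 6 (GRCm38, 112473683 to 112489943). Its level was 24.1, 26.2 and 23.2 CPM in OVX replicates 1, 2 and 3 and 41.5, 47.1 and 48.2 CPM in E2 replicates 1, 2 and 3. Every E2 library lay above every OVX library, as was the case for 6.85% of all genes. On the log2 scale the means were 4.61 ± 0.09 in OVX and 5.51 ± 0.12 in E2 (SD, n = 3 each), and the gap of 0.66 between the highest OVX and the lowest E2 library was larger than either SD. The log2 difference was 0.90 with an SE of 0.09, and the adjusted p was 0.000833 (limma with a mean-variance trend, Benjamini-Hochberg over all 13886 genes). By p it ranked 3 of all genes, and by the size of the rise 100. An exact permutation test of 3 against 3 libraries, 2-sided, gave p = 0.1, the smallest it can give.

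The read numbers behind *Oxtr*, rebuilt from the log2 values, ran from 651 in OVX replicate 3 to 1601 in E2 replicate 2. At 651 reads the counting error alone is 0.06 on the log2 scale, well below the difference between the groups. *Oxtr* shared 0 exonic bases with other annotated genes, so reads of an overlapping gene do not enter its value. Dropping any single library gave differences of 0.85 to 0.96 with adjusted p of 0.000646 to 0.00662. With the mean level of the forebrain excitatory markers as a covariate, the difference was 0.98 (SE 0.14) with an adjusted p of 0.0516, and without the mean-variance trend it was 0.90 with an adjusted p of 0.175. In these bulk pools, more *Oxtr*-expressing cells and more *Oxtr* RNA per cell cannot be told apart.

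*Avpr1a* (ENSMUSG00000020123, chromosome 10, 122448499 to 122453452, plus strand) encodes the V1a receptor, the main vasopressin receptor of the forebrain. It was measured at 1.15, 1.27 and 1.87 CPM in OVX replicates 1, 2 and 3 and at 2.10, 1.10 and 0.818 CPM in E2 replicates 1, 2 and 3. The highest and the lowest value were both found in E2 libraries, so the groups overlapped. Mean log2 CPM was 0.48 ± 0.37 in OVX and 0.31 ± 0.69 in E2 (SD, n = 3 each). The log2 difference of -0.18 had a 95% interval of -1.17 to 0.82 (adjusted p = 0.961, limma), which spans a fall to 0.445-fold and a rise to 1.76-fold. Its read numbers were 26 to 63 per library. The value was 0.03 (SE 0.52) without OVX replicate 3, 0.12 (SE 0.50) without E2 replicate 3 and -1.04 with the forebrain excitatory markers as a covariate.

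*Cd38* (ENSMUSG00000029084, chromosome 5, 43868553 to 43912375, plus strand) encodes the NAD-consuming ectoenzyme. Its values were 2.63, 2.59 and 0.908 CPM in OVX replicates 1, 2 and 3 and 2.13, 2.05 and 2.70 CPM in E2 replicates 1, 2 and 3. OVX replicate 3 stood low at 25 reads, while the other 5 libraries had 64 to 88, and the groups overlapped. The log2 difference was 0.31 (95% interval -0.60 to 1.21, adjusted p = 0.906, limma). It was -0.20 without OVX replicate 3, so the sign of the difference depended on that library. On the log2 scale that library was at -0.14 and the others at 1.03 to 1.43, with a counting error of 0.29 at 25 reads. With the forebrain excitatory markers as a covariate the difference was 1.13 with a wide SE of 0.59, and it did not pass the test.

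*Lnpep* (ENSMUSG00000023845, chromosome 17, 17521410 to 17625050, minus strand) encodes the oxytocin- and vasopressin-cleaving aminopeptidase, a resident of the vesicles that carry the glucose transporter GLUT4. Its values were 84.1, 85.0 and 84.6 CPM in OVX replicates 1, 2 and 3 and 81.6, 79.5 and 77.6 CPM in E2 replicates 1, 2 and 3. Each E2 library was below each OVX library, as in 6.82% of all genes, but the log2 difference was only -0.09 (95% interval -0.22 to 0.04, adjusted p = 0.763, limma). *Lnpep* was the steadiest member, with SDs of 0.01 and 0.04 on the log2 scale. Its interval leaves room for a fall to 0.859-fold or a rise to 1.03-fold.

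**Figure D2:**
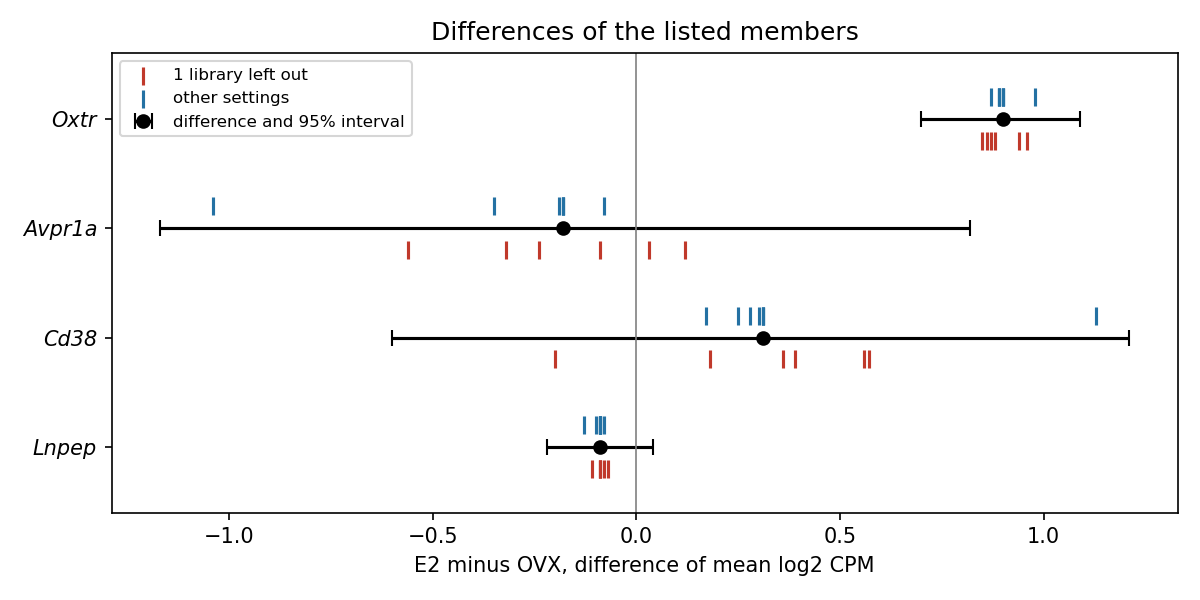
Difference of mean log2 CPM (E2 minus OVX, x axis) for each listed member with its 95% interval (black, n = 3 libraries per group), the values with 1 library left out (red marks) and those of the other settings (blue marks). The *Oxtr* interval runs from 0.70 to 1.09 with every mark to the right of 0, whereas the intervals of *Avpr1a*, *Cd38* and *Lnpep* contain 0 and marks of *Avpr1a* and *Cd38* fall on both sides.

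Levels were compared between members per kilobase of the longest coding transcript. *Oxtr* (2.83 log2 CPM per kb, 2.30 to 3.36 over the 6 libraries) and *Lnpep* (2.77, 2.69 to 2.82) had the highest levels, followed by *Cd38* (-0.68, -1.85 to -0.28) and *Avpr1a* (-1.02, -1.71 to -0.35). The ranges of the first pair did not touch those of the second, and within each pair the ranges overlapped. The order within the upper pair depended on treatment. The level of *Oxtr* minus that of *Lnpep* was -0.51 to -0.34 in the 3 OVX libraries and 0.38 to 0.67 in the 3 E2 libraries, so *Oxtr* was below *Lnpep* in the first and above it in the second. The same order held in each library with the coding length or the shortest coding transcript in place of the longest, although with the shortest the OVX values came up to the level of *Lnpep* in OVX replicate 2. Among all listed genes with a known length, the *Oxtr* level ranked at percentile 45.7, *Lnpep* at 44.6, *Cd38* at 5.88 and *Avpr1a* at 3.95.

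A ratio between 2 members of 1 library does not depend on how libraries were scaled to each other. The log2 ratio of *Oxtr* to *Lnpep* was -1.81, -1.70 and -1.87 in OVX replicates 1, 2 and 3 and -0.98, -0.76 and -0.69 in E2 replicates 1, 2 and 3. It was thus higher in every E2 library, by 0.98 on average, and stayed between 0.92 and 1.07 with any 1 library left out. The exact permutation p was 0.1, the smallest possible, and 0.6 after adjustment over the 6 pairs of members. The log2 ratio of *Oxtr* to *Avpr1a* was 1.07 higher with E2 (exact permutation p = 0.3, adjusted 0.8) and that of *Oxtr* to *Cd38* 0.59 higher (p = 0.4 by the same exact test, adjusted 0.8), and the groups overlapped in both. Leaving out OVX replicate 1 lowered the second to 0.32, and leaving out OVX replicate 3 raised it to 1.06. The ratios that do not involve *Oxtr* differed by -0.49 (*Avpr1a* to *Cd38*), -0.09 (*Avpr1a* to *Lnpep*) and 0.40 (*Cd38* to *Lnpep*), also with overlapping groups.

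The start regions of the 4 genes were searched for the half-site bound by estrogen receptors, GGTCA, on either strand (TGACC on the other), in windows of 300 bases from 250 before to 50 after the RefSeq start (GRCm38.p6). *Oxtr* had 2 half-sites, *Cd38* 3, *Avpr1a* 0 and *Lnpep* 0, and the palindrome GGTCANNNTGACC was in none of the 4 windows. Of all 32851 RefSeq windows of this length 40.5% held at least 1 half-site, 10.8% held 2 or more and 0.07% held the palindrome. The *Oxtr* and *Cd38* matches, the only ones found in the 4 windows, are shown with 10 flanking bases on each side, 5′ to 3′ on the gene's strand and with the half-site in capitals. Whether half-sites bear on the differences was not tested.
Oxtr, 97 bases before the start (chr6:112489908-112489932, minus): aggacaggcaGGTCAgtgccagagt
Oxtr, 25 bases into the transcript (chr6:112489787-112489811, minus): ggtcgcggttGGTCAtggagggcac
Cd38, 231 bases before the start (chr5:43868568-43868592, plus): caaggttgttGGTCAggagtattct
Cd38, 153 bases before the start (chr5:43868646-43868670, plus): gagaggttctGGTCAgtttgctctg
Cd38, 9 bases into the transcript (chr5:43868807-43868831, plus): gggcaggctcTGACCcagtcagccc
The GENCODE annotation starts *Oxtr*, *Cd38* and *Lnpep* further upstream, at 112489943, 43868553 and 17625050, where RefSeq has 112489825, 43868809 and 17624489, and for *Cd38* and *Lnpep* the GENCODE start lies outside the window searched. Distances in the matches above are from the RefSeq start. By the GENCODE starts, the *Oxtr* and *Cd38* matches given as before the start lie inside the annotated genes. A match is a description of letters in these windows, and binding of a receptor was not measured.

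Among receptors for neuropeptides, *Oxtr* was one of 4 that passed the test, all higher with E2. Of 60 other neuropeptide receptor genes set beside it, 49 were listed and 3 were called, against 0.288% of all genes (0.23% for genes higher with E2). All 3 were higher with E2: the neuropeptide Y receptor gene *Npy2r* (log2 difference 0.70, SE 0.08, adjusted p = 0.00133, limma), the prokineticin receptor gene *Prokr2* (0.99, SE 0.17, adjusted p = 0.0211) and the relaxin receptor gene *Rxfp1* (0.69, SE 0.10, adjusted p = 0.00917). The call of *Prokr2* was lost without OVX replicate 1, E2 replicate 1 or E2 replicate 2 (adjusted p up to 0.144) and that of *Rxfp1* without E2 replicate 2 (adjusted p = 0.0705), and all 3 were lost in a pair of other settings. Without the trend the differences were as before, with adjusted p of 0.279, 0.402 and 0.276 for *Npy2r*, *Prokr2* and *Rxfp1*. With the forebrain excitatory markers as a covariate they were 0.54, 0.63 and 0.82, with adjusted p of 0.260, 1.0 and 0.132. Over the 49 receptors the median difference was 0.07, against 0.00 for all genes, and the groups did not overlap in 17 (34.7%, 9 higher and 8 lower with E2), against 13.7% of all genes. This list was chosen with earlier results of these data known, and the paper had reported *Npy2r*, *Prokr2* and *Rxfp1* as raised by E2. Its shares are therefore a description and not a test of receptors as a group. With *Oxtr* and *Avpr1a* included, *Oxtr* had the smallest p of the 51 receptors and the 4th largest rise.

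By level per kilobase *Oxtr* ranked 13 of the 51 receptors over all libraries, 16 in the OVX mean and 10 in the E2 mean, between *Trhr* (3.03) and *Npy1r* (2.77), the receptors for thyrotropin-releasing hormone and neuropeptide Y. Over single libraries its rank ran from 10 to 17, so that its neighbors in this order were not separated from it. *Avpr1a* ranked 47 (44 to 50 over libraries), between *Tacr3* (-0.85) and *Oprm1* (-1.17), which encode a tachykinin and an opioid receptor. The vasopressin V1a receptor was thus among the lowest listed receptors in both groups, with rank 46 in the OVX and 49 in the E2 mean.

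**Figure D3:**
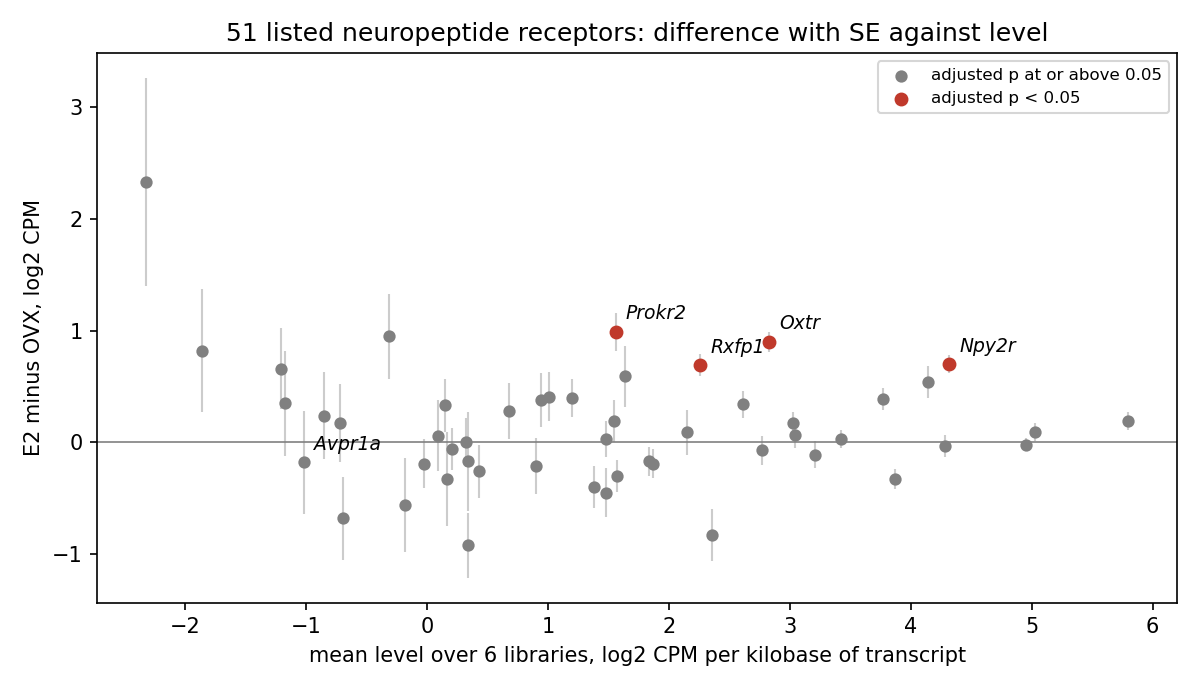
Difference of mean log2 CPM (E2 minus OVX, y axis, with SE) against the mean level over 6 libraries (log2 CPM per kilobase, x axis) of the 51 listed neuropeptide receptors, each a point, red where the adjusted p is under 0.05. *Oxtr*, at a level of 2.83 and a difference of 0.90, is one of the 4 red points, and *Avpr1a* lies at a low level of -1.02, with a difference of -0.18.

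None of the listed signaling genes of these receptors or partner genes of *Cd38* and *Lnpep* passed the test. Over lists of G proteins and phospholipases, calcium channels and kinases, desensitization, MAP kinases and translation, NAD metabolism, aminopeptidases and GLUT4 vesicles, 85 genes were listed. By limma with the trend or with voom weights 0 of them were called. With the trend 0.288% of all genes were called, so 0 of 85 lies near that share. An unadjusted p under 0.05 was found in 14 of the 85 (16.5%, against 8.56% of all genes). The groups did not overlap in 14 of the 85 (16.5%, against 13.7% of all genes), the median difference was -0.01, and the smallest adjusted p was 0.125. The differences ran from -0.53 in *Gna15* to 0.64 in *Enpep*, both measured at a low level.

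Of the Gq and phospholipase C list 7 of 8 genes were listed, 3 higher and 4 lower with E2. *Plcb4*, a phospholipase C, had the smallest p of this list (difference 0.27, SE 0.09, adjusted p = 0.404, limma), and *Plcb1*, the most abundant, differed by -0.04. In the Gi and Go list, the alternative partners of the oxytocin receptor, all 5 genes were listed, from *Gnaz* at -0.13 to *Gnai2* at 0.05, with the abundant *Gnao1* at 0.02. Of the IP3 receptors and protein kinases C, 8 of 8 were listed, 4 higher and 4 lower with E2, and the kinase gene *Prkca* differed by 0.23 (SE 0.05, adjusted p = 0.125). Receptor kinases, arrestins and RGS proteins, which end G protein-coupled receptor signaling, stayed within -0.14 (*Rgs2*) and 0.07 in all 8 listed genes, among them *Grk6* at -0.08 and *Arrb1* at 0.02.

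In the MAP kinase and translation list 9 of 11 genes had a value below 0, as had 48.9% of all genes, but the median was -0.01. The transcription factor genes *Mef2d* and *Mef2c* were at -0.18 (adjusted p = 0.281, limma) and -0.19 (adjusted p = 0.429), and the elongation factor gene *Eef2* at 0.01. *Mef2c* was at -0.12 without OVX replicate 1 and at -0.05 with the covariate of forebrain excitatory markers. The calmodulin kinase and calcineurin list had 7 higher and 10 lower of 17 genes, with *Camkk1* and *Camkk2* both at -0.17 and *Camk2a*, a gene abundant in forebrain excitatory neurons, at -0.18. The *Camk2a* difference was -0.10 with the level of the forebrain excitatory markers as a covariate and -0.04 with quantile normalization.

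For *Cd38*, the list of cyclic ADP-ribose and NAD genes had 10 of 12 genes listed, 6 higher and 4 lower. The other mammalian ADP-ribosyl cyclase of this kind, *Bst1*, was not listed. *Nampt*, which makes the NAD precursor, differed by 0.18 (adjusted p = 0.537, limma). Of the ryanodine receptor partners, *Fkbp1b* had means of 3.83 and 3.42 log2 CPM (difference -0.41, adjusted p = 0.400), and those of *Fkbp1a* lay closer together than its SDs of 0.02 and 0.03. The ryanodine receptor genes, through which cyclic ADP-ribose releases calcium, differed by 0.01 (*Ryr1*), 0.03 (*Ryr2*) and 0.19 (*Ryr3*).

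For *Lnpep*, 9 further M1 aminopeptidase genes were listed. Per kilobase *Lnpep* ranked 6 of these 10, below *Npepps* (5.43), the most abundant, and *2010111I01Rik* (2.84, aminopeptidase O), and above *Trhde* (2.04), which degrades thyrotropin-releasing hormone. The angiotensin-degrading *Enpep* had the largest difference (0.64, SE 0.51, adjusted p = 0.799, limma), with SDs of 1.03 in OVX and 0.22 in E2 libraries, and it was 0.06 without OVX replicate 3 and 1.03 without OVX replicate 2, while *Npepps* differed by -0.01 and *2010111I01Rik*, which shares exonic bases with other genes, by 0.24. Of the 10 GLUT4 vesicle partners 6 were higher and 4 lower, with a median of 0.04. *Tbc1d4*, a Rab regulator of GLUT4 vesicles, was at 0.49 (SE 0.14, adjusted p = 0.290, limma), *Sort1* at -0.16 (-0.05 with the covariate of forebrain excitatory markers) and *Vamp2* at -0.09.

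**Figure D4:**
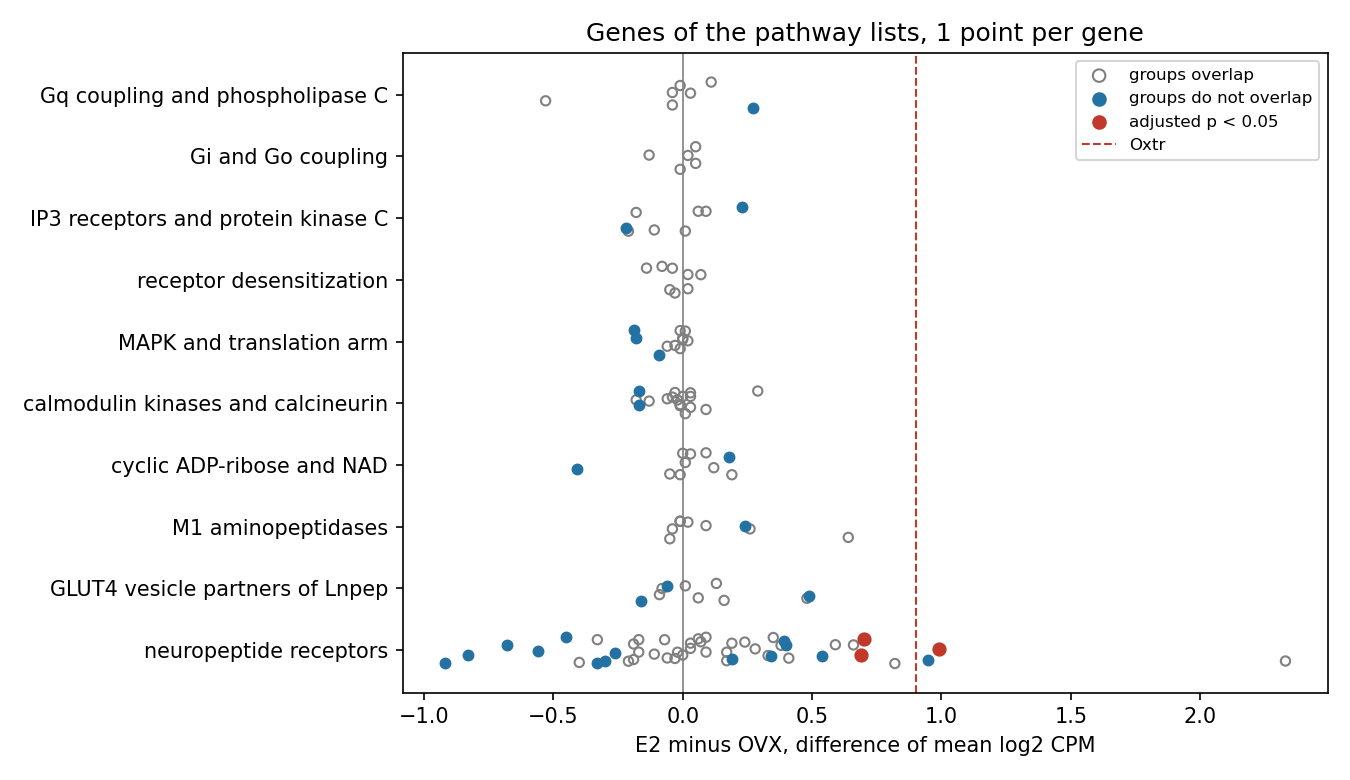
Difference of mean log2 CPM (E2 minus OVX, x axis) of each listed gene (point) of the pathway lists (rows), filled blue where the 3 OVX and 3 E2 libraries do not overlap and red where the adjusted p is under 0.05. The *Oxtr* difference of 0.90 (dashed line) lies to the right of all 85 genes of the first 9 lists, and the 3 red points are neuropeptide receptors.

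Genes whose pattern was nearest to each member were found as those with the smallest root mean square (RMS) distance between deviations from their own mean over the 6 libraries, among genes with a mean log2 CPM of at least 1. For *Oxtr* they were *Rxfp1* (0.115), the fibroblast growth factor receptor gene *Fgfr1* (0.133), the potassium channel gene *Kcnk1* (0.137), *Gm45951* (0.140) and *Tcerg1l* (0.157), while the median over 12908 genes was 0.471 and 19 genes lay within 0.2. Besides *Rxfp1*, the genes *Fgfr1* and *Kcnk1* (differences 0.70 and 0.67, adjusted p = 0.000948 for both, limma) and *Tcerg1l* (0.85, adjusted p = 0.0189) were also called. *Gm45951* was not called (0.67, SE 0.21, adjusted p = 0.341, limma). Since the distance uses the same 6 libraries as the comparison, a gene near *Oxtr* must also be higher with E2.

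For *Avpr1a* the nearest genes were *AI429214* (0.160), *Ntf3* (0.174) and *Stk33* (0.185), and for *Cd38* *Ccdc163* (0.132), *Casp8* (0.145) and *Frem2* (0.181), none of them called. For *Lnpep* they were *Ly6e* (0.0132), *Mta3* (0.0135) and *Arnt2* (0.0171), but 4393 genes lay within 0.1 of this nearly flat gene, whose own RMS deviation was 0.049.

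**Figure D5:**
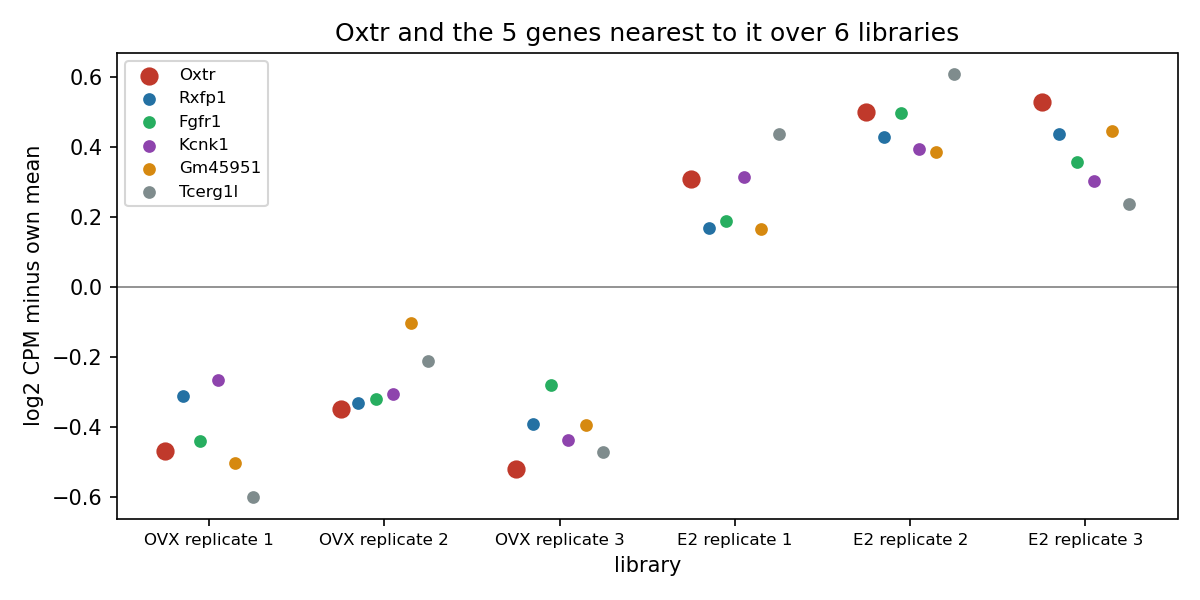
Log2 CPM minus the gene's own mean (y axis) in each of the 6 libraries (x axis) for *Oxtr* (large red points) and the 5 genes nearest to it. All 6 genes are below their mean in the 3 OVX libraries and above it in the 3 E2 libraries, with *Rxfp1* nearest at an RMS distance of 0.115.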

How the data were processed

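RNA-seq was performed by the authors on MeA IP RNA (unstranded polyA mRNA libraries). Per the labels and the study's methods, the authors used FastQC 0.11.8, Trimmomatic 0.38, STAR 2.6.0a and RSEM 1.3.0 with GRCm38 and Ensembl release 98, kept protein-coding genes, and applied TMM scaling and voom. The values used here are the log2 CPM deposited by the authors, in which no gene had fewer than 3 libraries above a CPM of 1. A second deposited table, with the authors' own comparison (fold changes, test statistics, p-values and group means), was not used. Members and gene lists were chosen with earlier results of these data known. Differences (E2 minus OVX) were tested with limma 3.58.1 in R 4.3.3 on all 13886 genes and 6 libraries, with a mean-variance trend, treatment as the only term, Benjamini-Hochberg adjustment and a threshold of 0.05, and the script was tested on simulated data. Voom on CPM understates changes of low genes, since it adds 0.5 to each count. Exact permutation tests were 2-sided. Replicates are separate pools. Read numbers were rebuilt from the log2 CPM, with the lowest value of a library taken as 0 reads; their counting errors do not cover PCR duplicates. Positions, lengths and exonic overlaps were taken from release 21 of the GENCODE mouse annotation (GRCm38), promoter windows from RefSeq. From each pathway list, called genes were named, and otherwise the 2 with the smallest unadjusted p and the most abundant 1. A gene named by this rule is not reported here. Alternatives were no trend, voom weights on rebuilt counts, median centring, quantile normalization, a filter on the mean log2 CPM (1 or more), a pseudocount of 1 on the CPM, a replicate block, the forebrain excitatory markers as a covariate, and each library left out.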

Additional observations from a re-analysis of the deposited data

How the results depend on the processing

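*Oxtr* kept its direction in all 14 alternatives and its call in 12 of them. The call was lost without the mean-variance trend (0.90, adjusted p = 0.175) and with the forebrain excitatory covariate (0.98, adjusted p = 0.0516), and the cause was not tested. Across the table, 0 genes were called without the trend (1017 at an unadjusted p under 0.05), 2 with the covariate and 20 to 66 with 1 library left out (20 without E2 replicate 2, 21 without OVX replicate 1, 26 without E2 replicate 1 and 66 without E2 replicate 3), against 40. Of the 85 pathway genes (81 under the filter on mean log2 CPM) 0 were called in each of the 14 alternatives, with 5 to 16 at an unadjusted p under 0.05, and the *Lnpep* difference ran from -0.13 to -0.07. With libraries left out, the difference ran from -0.56 to 0.12 for *Avpr1a* (0.03 without OVX replicate 3, 0.12 without E2 replicate 3) and from -0.20 to 0.57 for *Cd38* (-0.20 without OVX replicate 3). *Avpr1a* was not tested under the filter on mean log2 CPM.

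Log ratios that turned were *Avpr1a* to *Cd38* (-0.91 to 0.23), *Avpr1a* to *Lnpep* (-0.45 to 0.19) and *Cd38* to *Lnpep* (-0.11 to 0.66), through OVX replicate 3 and, for the second, E2 replicate 3 (0.12 and 0.19). Values near 0 that turned with a library left out ran up to 0.02 for *Plcb1* (-0.08 to 0.02), down to -0.01 for *Gnao1* (-0.01 to 0.04), -0.03 for *Arrb1* (-0.03 to 0.05), and -0.02 for *Eef2* (-0.02 to 0.05), and from -0.01 to 0.01 for *Fkbp1a* and from -0.03 to 0.01 for *Npepps*. Others turned with the covariate (*Gnai2* -0.01, *Arrb1* -0.08, *Npepps* 0.01), with median centring (*Eef2* -0.00) or with quantile normalization (*Fkbp1a* 0.04, *Npepps* 0.00). Levels per kilobase of coding length were 4.84 for *Oxtr*, 4.74 for *Lnpep*, 1.16 for *Cd38* and 0.05 for *Avpr1a*, and *Oxtr* had 3.16 by its shorter transcript.

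No source ties an OVX to an E2 pool of the same replicate number, and deviations from the group means correlated at -0.02, -0.12 and -0.08. With a replicate block, 35 genes were called and *Oxtr* had a difference of 0.90 with an adjusted p of 0.0019, *Avpr1a* -0.18, *Cd38* 0.31 and *Lnpep* -0.09, with no member's call changed. The lowest read numbers of *Avpr1a* and *Cd38* were 26 and 25, with counting errors of 0.28 and 0.29 on the log2 scale. These were below the SDs between libraries of the same groups, 0.69 (*Avpr1a*, E2) and 0.88 (*Cd38*, OVX), the latter resting on OVX replicate 3. In the other group the SDs were smaller, 0.37 (*Avpr1a*, OVX) and 0.22 (*Cd38*, E2).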
